A study of Gallus gallus with 15 samples.

Results

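Carnosine and anserine are the main small dipeptides of chicken breast muscle, and 9 genes that make, methylate, break down or feed these dipeptides and taurine were followed across 3 ages of Jingyuan chickens. The members were CARNS1, CARNMT1, CNDP1, CNDP2, GADL1, CSAD, SLC6A6, ABAT and UPB1, chosen by name as enzymes and a transporter of carnosine, taurine and beta-alanine metabolism. All 9 were found, in 25 of the 48836 rows of the expression table, which hold 23599 gene names. Poly(A) RNA of whole breast muscle had been sequenced from 15 hens, 5 each slaughtered at 42, 126 and 180 days of age, when the groups weighed 0.422 ± 0.03, 1.68 ± 0.14 and 2.03 ± 0.09 kg, all reared together from 300 chicks on one farm with free access to feed and water. The kind of error was not given beside the weights. The authors state mean ± SEM for their data in general, which may or may not cover the weights. No other treatment or genotype was applied, and age and slaughter day cannot be told apart. The comparisons asked which of these genes differed between ages.

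Carnosine is a dipeptide of beta-alanine and histidine that buffers protons and binds metals in fast, glycolytic muscle. Its methylated form, anserine, is abundant in birds, and both contribute to the flavour of meat. Beta-alanine is usually the limiting precursor. It is made by the breakdown of uracil or by decarboxylation of aspartate and is taken up by the carrier that also imports taurine, the sulfonic acid that acts as an osmolyte in muscle.

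The values are FPKM (mapped fragments scaled by transcript length in kilobases and by each 1000000 of fragments mapped), a level per length that allows genes to be compared within a sample. They hold no read counts, so the depth behind each value is unknown, and a low level cannot be given a counting error. Fast muscle markers were high in all birds, and the 6 of 13 markers found by name summed to between 17453 and 42736 FPKM. The 9 of 10 slow or cardiac muscle markers found summed to between 1378 and 3825 FPKM. Nearly all of this was the troponin TNNC1, at means of 2051, 2801 and 3465 FPKM at 42, 126 and 180 days. The next, TPM3, averaged 29.1, 45.2 and 32.0 FPKM. TNNI1 (2.15, 0.242 and 0.224 FPKM), MYH7B, MYL3 and ATP2A2 averaged less at 180 than at 42 days, and TPM3 and CSRP3 more. The median of TPM3 was lower at 180 than at 42 days, 19.4 against 27.6 FPKM, and its highest 180-day bird had 84.2 FPKM. MYH7 was near 0, and MYL2, a slow and cardiac myosin light chain, was listed at 0 in all 15 birds. The labels call the samples myoblasts and primary cells, while these levels are those of breast muscle. In each age 1 bird stood apart from the others over all genes, 42-day replicate 5 (mean r with the others of its age 0.903), 126-day replicate 1 (0.901) and 180-day replicate 1 (0.848), against 0.924 to 0.944 for the remaining birds. 42-day replicate 5 had the lowest fast muscle sum, 17453 FPKM. 180-day replicate 1 had the highest sums of T cell markers (104 FPKM, the other 14 birds between 3.44 and 25.2) and B cell markers (517 FPKM, the others between 0.65 and 57.5). Most of this B cell sum was JCHAIN, at 487 FPKM. JCHAIN also made most of the next highest sum, at 56.8 FPKM in 126-day replicate 1. 126-day replicate 1 had the highest fibroblast (1284 FPKM) and erythrocyte (283 FPKM) sums. In whole tissue, fewer cells of a type and less RNA per cell cannot be told apart.

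With all birds, none of the members was a differentially expressed gene (DEG) between any ages, and the spread between birds of one age was wide for GADL1, SLC6A6 and CARNS1 and narrow for CARNMT1. A gene was called a DEG when its limma p, adjusted by Benjamini-Hochberg over all genes tested, was under 0.05 and its log2 fold change, later over earlier age, was 1 or more in size. Fold changes are on the log2(FPKM + 0.1) scale, which understates changes of low genes. Between 126 and 42 days, 0 of the 8 members tested were DEGs, beside 2.46% of the 11482 genes tested. In the comparison of 180 with 42 days the count was 0 of 8, beside 2.93% of 11691 genes, and for 180 and 126 days it was 0 of 7, beside 0.921% of 11515 genes. With so few members, a count of 0 lies near these shares. At an unadjusted limma p under 0.05 there was 1 member in each comparison, CNDP2, ABAT and GADL1 in this order, where 19.6%, 17.6% and 15.8% of all genes passed. CNDP1 was too low to be tested, and UPB1 was tested only against 42 days. The log2 fold change was negative for 6 of 8, 6 of 8 and 4 of 7 members, beside 63.4%, 63.5% and 49.4% of all genes. UPB1 is 1 of the 6 in both comparisons with 42 days and enters their medians. It reached the mean of 0.5 FPKM needed for a test through the 42-day birds, which favoured a negative value. The members' median log2 fold changes were -0.41, -0.36 and -0.10, and those of all genes -0.15, -0.13 and 0.0050.

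**Figure D1:**
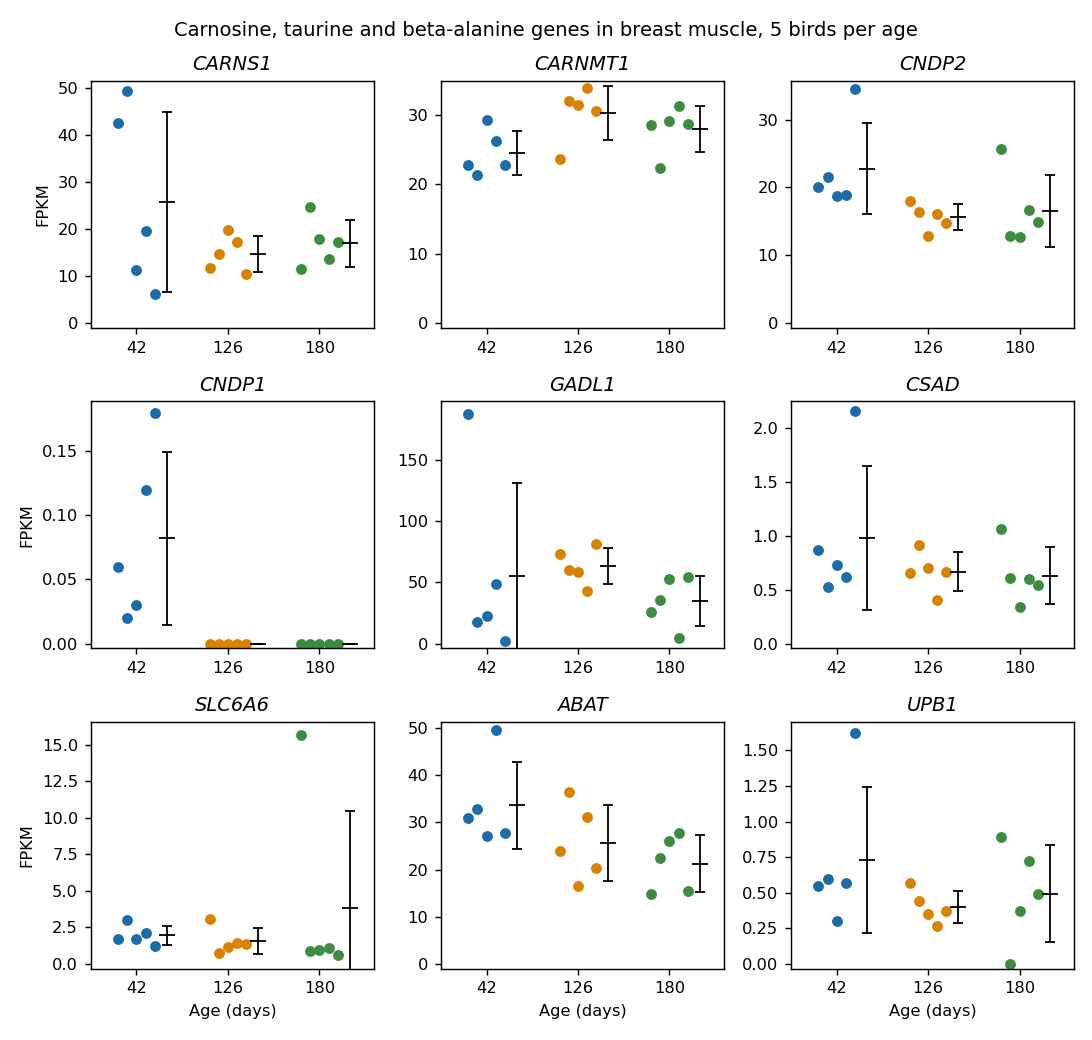
FPKM of the 9 members in each bird (points, replicate 1 to 5 from left to right) at 42, 126 and 180 days, with the mean and SD of 5 birds beside them (bars that would pass below 0 are cut at the axis). GADL1 ranged from 2.03 to 187 FPKM within the 42-day birds, CARNMT1 from 21.3 to 33.8 FPKM over all birds, and 1 bird at 180 days had 15.6 FPKM of SLC6A6.

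In mean level, the members fell into a higher and a lower group. GADL1, ABAT, CARNS1, CARNMT1 and CNDP2 had mean levels between 14.8 and 63.1 FPKM at every age, and SLC6A6, CSAD, UPB1 and CNDP1 between 0 and 3.84 FPKM. GADL1 had the highest mean at each age, but at 42 days this rested on replicate 1, and GADL1 was above ABAT in 1 of 5 birds, with a median of 22.3 against 30.9 FPKM. Among the higher 5, only GADL1 and the next gene at 126 days, CARNMT1, had ranges that did not overlap. All other neighbours in that order overlapped at every age. At 42 days, the range of CNDP2, the lowest of these 5, lay above that of SLC6A6, and at 126 days that of CARNS1 did. The range of GADL1 was not apart from that of SLC6A6 at 42 days (1.26 to 2.99 FPKM). 42-day replicate 5 had 2.03 FPKM of GADL1. Among neighbours in the order of the lower group, only UPB1 and CNDP1 had separate ranges, at 42 and 126 days. At 180 days SLC6A6 overlapped CNDP2 through replicate 1, although CNDP2 was higher than SLC6A6 in 5 of 5 birds.

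CARNS1, carnosine synthase, joins beta-alanine to histidine. The 42-day birds (replicates 1 to 5 in order, here and below) had 42.5, 49.3, 11.3, 19.5 and 6.08 FPKM of CARNS1, a mean of 25.7 ± 19.2 (SD, n = 5). CARNS1 was much more even later, with 11.8, 14.7, 19.7, 17.3 and 10.4 FPKM at 126 days (14.8 ± 3.84) and 11.5, 24.6, 17.8, 13.6 and 17.3 FPKM at 180 days (17.0 ± 5.02). The 42-day birds thus held both the 2 highest values of the 15 birds and the lowest, with the highest 8.10 times the lowest, and all ages overlapped. The log2 fold change of CARNS1 was -0.44 (SE 0.49, 95% interval -1.51 to 0.63) from 42 to 126 days, with an adjusted p of 0.658 (limma). It was -0.11 without 42-day replicate 2, -0.16 without 42-day replicate 1 and -0.86 without 42-day replicate 5. It was -0.25 (SE 0.50, adjusted p = 0.848, limma) from 42 to 180 days and 0.19 (SE 0.23, adjusted p = 0.782, limma) from 126 to 180 days. These intervals do not exclude a fall of more than 1 log2 unit by 126 days.

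CARNMT1, known in mammals as the enzyme that methylates carnosine to anserine, was the steadiest member. Its levels were 22.8, 21.3, 29.3, 26.2 and 22.8 FPKM at 42 days (24.5 ± 3.21, SD, n = 5). CARNMT1 had 23.6, 32.0, 31.4, 33.8 and 30.5 FPKM at 126 days (30.2 ± 3.93) and 28.5, 22.4, 29.1, 31.2 and 28.7 FPKM at 180 days (28.0 ± 3.31). The 126-day birds other than replicate 1 lay above every 42-day bird. CARNMT1 differed from 42 days by a log2 fold change of 0.30 at 126 days (SE 0.16, 95% interval -0.039 to 0.65, adjusted p = 0.306, limma) and of 0.19 at 180 days (SE 0.15, adjusted p = 0.575, limma). Within ages its SD was 0.189 on the log2 scale, and 3.07% of 11601 genes had a smaller one, where the median gene had 0.453. The SD of CARNS1 was 0.800. On the log2 scale CARNS1 minus CARNMT1 averaged -0.32 ± 1.37 at 42 days, -1.06 ± 0.32 at 126 days and -0.76 ± 0.57 at 180 days (SD, n = 5), so that the spread of the ratio was widest in the youngest birds.

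The dipeptidases differed from each other in level. CNDP2, the cytosolic nonspecific dipeptidase, was at 20.1, 21.5, 18.8, 19.0 and 34.5 FPKM at 42 days (22.8 ± 6.66, SD, n = 5). It was at 17.9, 16.4, 12.8, 16.1 and 14.8 FPKM at 126 days (15.6 ± 1.93) and at 25.7, 12.9, 12.7, 16.6 and 14.8 FPKM at 180 days (16.5 ± 5.34). Every 42-day bird lay above every 126-day bird, the only case of no overlap among the 8 members tested there, beside 6.45% of all genes. In the other comparisons 0 of 8 and 0 of 7 members did not overlap, beside 5.67% and 4.32%. The log2 fold change of CNDP2 was -0.51 (SE 0.19, 95% interval -0.93 to -0.09) from 42 to 126 days, and its adjusted p of 0.175 (limma) missed the threshold. From 42 to 180 days it was -0.47 (SE 0.23, adjusted p = 0.330, limma), and it was -0.31 (adjusted p = 0.488, limma) without 42-day replicate 5. All 180-day birds but replicate 1, at 25.7 FPKM, lay below every 42-day bird. Without 180-day replicate 1 the value was -0.64 (SE 0.21, adjusted p = 0.0746, limma). With 180-day replicate 2 or 3 left out the adjusted p was 0.550 or 0.549 (limma). Without the 3 birds that stood apart, a choice made after seeing the data, the value was -0.48 (SE 0.14, adjusted p = 0.0553, limma). Between 126 and 180 days the value was 0.042 (SE 0.20, adjusted p = 0.953, limma). CNDP1, the secreted carnosinase of serum in mammals, was listed at 0.06, 0.02, 0.03, 0.12 and 0.18 FPKM in the 42-day birds and at 0 in all 10 older birds. These levels are far under the mean of 0.5 FPKM needed for a test, and no fold is given.

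GADL1, an acidic amino acid decarboxylase that in mice makes beta-alanine from aspartate, had the widest spread of the members. The 42-day birds had 187, 17.5, 22.3, 48.5 and 2.03 FPKM of GADL1 (55.5 ± 75.6, SD, n = 5), a ratio of 92.3 between the highest and the lowest bird of one age. It was narrow at 126 days, at 72.9, 60.1, 58.6, 42.6 and 81.3 FPKM (63.1 ± 14.8), and wider again at 180 days, at 25.8, 35.9, 52.8, 4.62 and 54.3 FPKM (34.7 ± 20.6). Of the 126-day birds, 4 were above all 180-day birds, and the 42-day birds spanned both. Within ages the SD of GADL1 was 1.61 on the log2 scale, and 98.4% of genes had a smaller one. From 126 to 180 days its log2 fold change was -1.23 (SE 0.56, 95% interval -2.45 to -0.010, adjusted p = 0.314, limma), and -0.61 without 180-day replicate 4. From 42 to 126 days the value was 1.37 (SE 0.87, 95% interval -0.51 to 3.26, adjusted p = 0.404, limma), and it was 0.50 without 42-day replicate 5 and 2.12 without 42-day replicate 1. From 42 to 180 days it was 0.15 (SE 1.01, adjusted p = 0.964, limma), an interval of -2.05 to 2.34 that leaves the direction unknown. Without 42-day replicate 5 the 180-day value turned to -0.73.

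CSAD, cysteine sulfinic acid decarboxylase, which forms hypotaurine on the way to taurine, was low throughout. It was at 0.87, 0.52, 0.73, 0.62 and 2.15 FPKM at 42 days, at 0.65, 0.91, 0.70, 0.40 and 0.66 FPKM at 126 days and at 1.06, 0.61, 0.34, 0.60 and 0.54 FPKM at 180 days. All ages overlapped. The log2 fold changes of CSAD were -0.36 (SE 0.38), -0.46 (SE 0.42) and -0.10 (SE 0.36) for 126 against 42, 180 against 42 and 180 against 126 days, with adjusted p of 0.635, 0.631 and 0.939 (limma). Without 42-day replicate 5 the first pair of values was -0.055 and -0.16, without 126-day replicate 4 the 126-day value was -0.22, and without 180-day replicate 3 the 180-day value against 42 days was -0.30. GADL1 was therefore the more abundant of both decarboxylases in mean level at each age, although in 42-day replicate 5 they were at 2.03 and 2.15 FPKM.

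**Figure D2:**
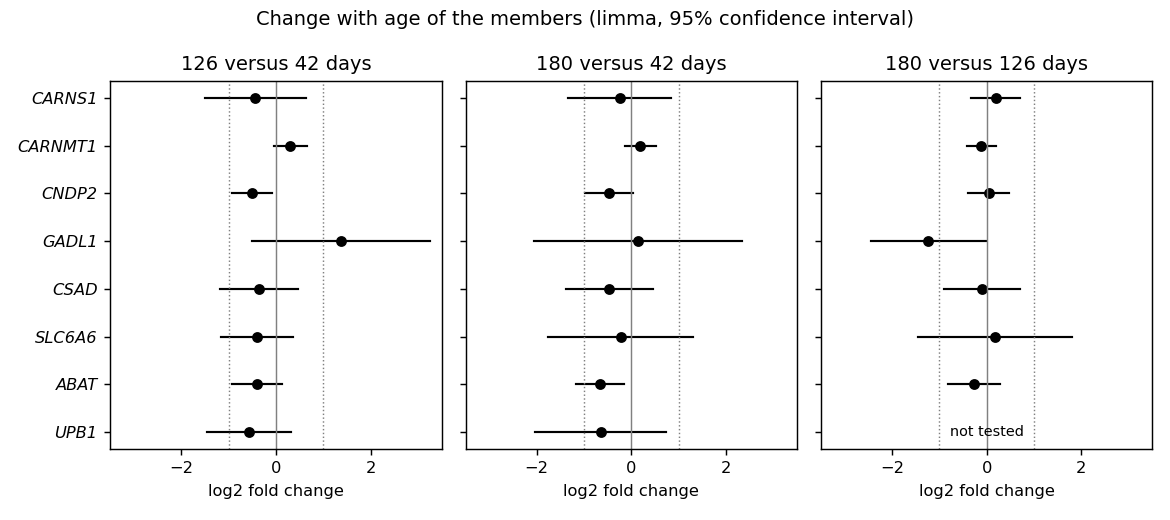
Log2 fold change of each tested member (points) with its 95% confidence interval (lines) from limma on log2(FPKM + 0.1), the later age over the earlier, 5 birds per age. The dotted lines mark a log2 fold change of 1 in either direction. The intervals of GADL1 and SLC6A6 were wide and those of CARNMT1 narrow, and UPB1 was not tested between 180 and 126 days.

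SLC6A6, the sodium- and chloride-dependent carrier of taurine and beta-alanine, gave the member result that turned on a single bird. At 42 days it was at 1.73, 2.99, 1.70, 2.11 and 1.26 FPKM (1.96 ± 0.651, SD, n = 5). The 126-day values of SLC6A6 were 3.08, 0.72, 1.19, 1.43 and 1.37 FPKM (1.56 ± 0.895), and the 180-day values 15.6, 0.91, 0.97, 1.07 and 0.60 FPKM (3.84 ± 6.60). At 180 days, 4 of 5 birds lay below every 42-day bird and replicate 1 above all other birds. With all 10 birds, the log2 fold change of SLC6A6 from 42 to 180 days was -0.23 (SE 0.70, 95% interval -1.76 to 1.30, adjusted p = 0.906, limma). Without 180-day replicate 1 it was -1.03 (SE 0.29, 95% interval -1.66 to -0.40) with an adjusted p of 0.0462 (limma), a DEG, where 6.8% of the 11327 genes then tested were DEGs. Without the 3 birds that stood apart it was -1.17 (SE 0.27, adjusted p = 0.0211, limma), where 7.9% of genes were DEGs. From 42 to 126 days it was -0.40 (SE 0.35, adjusted p = 0.561, limma), and -0.81 (SE 0.28, adjusted p = 0.105, limma) without those birds, -0.67 without 126-day replicate 1, -0.24 without 42-day replicate 2 and -0.19 without 126-day replicate 2.

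180-day replicate 1 was also the bird with the highest sums of lymphocyte and myeloid markers. Its sum over the 10 T cell markers was 104 FPKM, against 6.02 to 8.74 FPKM in the other 180-day birds. Its sum over the 4 B cell markers found, of 6 listed, was 517 FPKM against 1.09 to 5.59, and over 9 myeloid markers 1444 FPKM against 77.3 to 143. Most of this myeloid sum was CD74, which reached 1122 FPKM at 180 days. C1QA, C1QB, C1QC and MARCO reached at most 7.68, 7.44, 8.03 and 4.88 FPKM at 180 days. Their highest levels at 126 days were 19.0, 16.6, 25.6 and 9.74 FPKM. For CSF1R, LY86, PTPRC and CTSS the highest 180-day level was above that at 126 days. PAX5, a B cell transcription factor, was at 7.98 FPKM in 180-day replicate 1 and at 0 in the other 4 of its age. 126-day replicate 1, with the highest SLC6A6 of its age, had the highest T cell sum of its age too, 25.2 FPKM against 10.6 to 13.9. The part of these cells in the SLC6A6 level was not tested. SLC6A6 was also divided over 7 rows of the table, of which 4 led in some bird. By the row with the highest mean alone, its log2 fold change from 42 to 180 days was 1.36 (adjusted p = 0.702, limma).

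**Figure D3:**
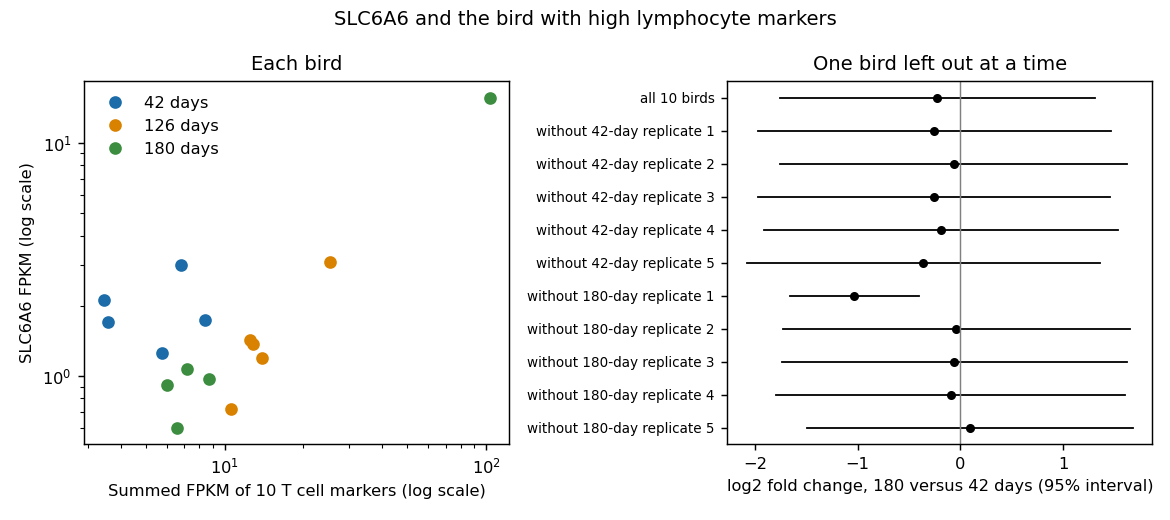
Left, SLC6A6 FPKM against the summed FPKM of the T cell markers in each of the 15 birds (both axes on a log scale, colours for the ages). Right, log2 fold change of SLC6A6 from 42 to 180 days with its 95% interval for all 10 birds and with each bird left out. The bird at 15.6 FPKM is 180-day replicate 1, with a T cell sum of 104 FPKM, and only the interval without it, -1.66 to -0.40, lies below 0.

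ABAT, 4-aminobutyrate aminotransferase, which removes the amino group of GABA and of beta-alanine, was lower on average at each later age. The 42-day birds had 30.9, 32.9, 27.2, 49.6 and 27.7 FPKM of ABAT (33.6 ± 9.22, SD, n = 5). It was at 24.0, 36.4, 16.6, 31.2 and 20.4 FPKM at 126 days (25.7 ± 8.05) and at 14.8, 22.4, 26.1, 27.7 and 15.4 FPKM at 180 days (21.3 ± 5.97). At 180 days 4 of 5 birds were below every 42-day bird, and replicate 4 overlapped them. The log2 fold change of ABAT from 42 to 180 days was -0.67 (SE 0.23, 95% interval -1.17 to -0.16), which did not pass the threshold (adjusted p = 0.147, limma). From 42 to 126 days it was -0.41 (SE 0.24, adjusted p = 0.371, limma) and from 126 to 180 days -0.26 (SE 0.25, adjusted p = 0.694, limma). With any 1 bird left out, the 180-day value against 42 days stayed between -0.78 and -0.52. Over the other alternatives it reached -1.05, and that from 126 to 180 days -0.75, with no call. ABAT was divided over 3 rows of the table, of which 2 led in some bird. At 42, 126 and 180 days 1 of these averaged 20.6, 16.4 and 9.60 FPKM. The other averaged 13.0, 9.34 and 10.1 FPKM and so did not fall further after 126 days. The value from 42 to 126 days was -0.26 without 42-day replicate 4 or 126-day replicate 3, and that from 126 to 180 days moved between -0.41 (without 126-day replicate 3) and -0.12 (without 126-day replicate 2).

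UPB1, beta-ureidopropionase, makes beta-alanine in the last step of uracil breakdown, which is known mainly from liver. UPB1 was listed at 0.55, 0.60, 0.30, 0.57 and 1.62 FPKM at 42 days, at 0.57, 0.44, 0.35, 0.27 and 0.37 FPKM at 126 days and at 0.89, 0, 0.37, 0.72 and 0.49 FPKM at 180 days. The ages overlapped, and the log2 fold changes against 42 days, -0.58 at 126 days (SE 0.41, adjusted p = 0.462, limma) and -0.64 at 180 days (SE 0.64, adjusted p = 0.662, limma), lay within the spread between birds. UPB1 averaged 0.728, 0.400 and 0.494 FPKM at 42, 126 and 180 days. It thus reached the mean of 0.5 FPKM needed for a test through the 42-day birds. A negative value against 42 days was therefore favoured in advance. Without 42-day replicate 5 the gene was not tested. Without 180-day replicate 2, the bird at 0, the 180-day value was -0.087 (adjusted p = 0.964, limma).

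Several members were at an extreme in the same bird. 42-day replicate 5 had the highest level of the 15 birds for 4 of the 9 members (CNDP2, CSAD, UPB1 and CNDP1) and the lowest for 2 (CARNS1 and GADL1). The share of all genes with an extreme in this bird is not given, so the counts are not read as particular to the members. CSAD, UPB1 and CNDP1 were also low. 42-day replicate 5 had the lowest fast muscle sum too, 17453 FPKM against 31476 to 42736 FPKM in the other 42-day birds. Its fibroblast sum, 247 FPKM, was below the 526 to 817 FPKM of those birds. The part of the muscle content of this sample in these levels was not tested. Over the 15 birds on the log2 scale, CNDP2 went with CSAD (Pearson r = 0.763) and with UPB1 (r = 0.743), and CNDP2 and GADL1 went in opposite directions (r = -0.553). CARNS1 and GADL1 had an r of 0.453. These correlations are descriptions without a test, and all of them share 42-day replicate 5.

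**Figure D4:**
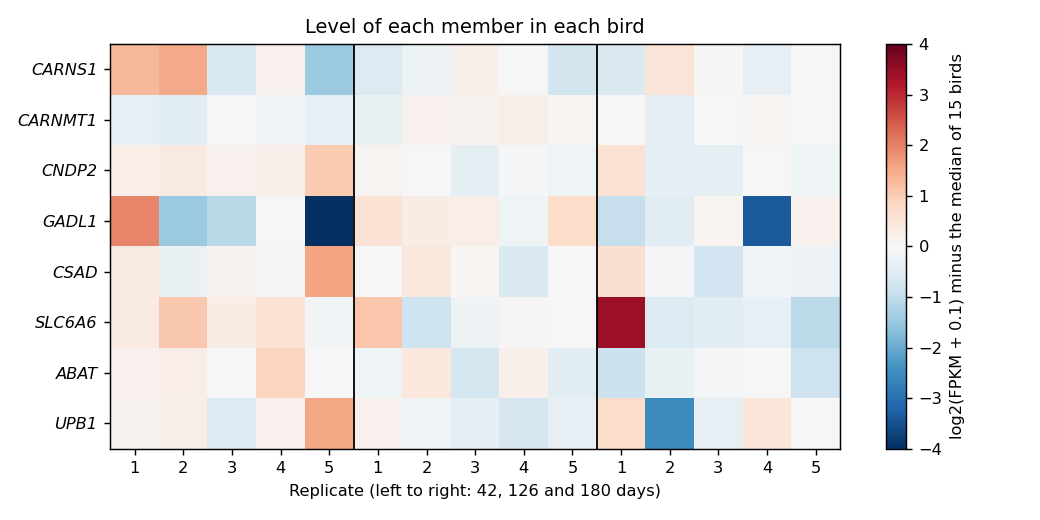
Level of each member (rows) in each bird (columns, by replicate within age, 42, 126 and 180 days from left to right) as log2(FPKM + 0.1) minus the median of the 15 birds, red for higher and blue for lower. 42-day replicate 5 is low in CARNS1 (6.08 FPKM) and GADL1 (2.03 FPKM) and high in CNDP2, CSAD and UPB1. The darkest red cell is SLC6A6 in 180-day replicate 1, at 15.6 FPKM. CNDP1, at 0 in 10 birds, is left out.

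The genes whose pattern was most like that of CARNS1 over the 15 birds, among 9550 genes with a symbol and a mean of at least 0.5 FPKM, were TPI1 (Pearson r = 0.810), a glycolytic enzyme, the mitochondrially encoded ND3 (0.804), CTTNBP2 (0.783), MTMR7 (0.746) and HPSE2 (0.744). Without the 3 birds that stood apart the r of these genes was 0.742, 0.871, 0.676, 0.605 and 0.564. Those most like SLC6A6 were HEXA, a lysosomal hexosaminidase subunit (0.950), UHRF1 (0.939), CYTH1 (0.937), ATP10D (0.934) and VAV3 (0.930), and without the same birds their r was 0.813, 0.747, 0.825, 0.799 and 0.700. Those most like GADL1, a gene chosen for this after its values were seen, were IL12RB2 (0.848), PRELID3A (0.848), NMRK2 (0.840), GPI (0.828) and GPD1 (0.823). Without the same birds their r was 0.851, 0.872, 0.678, 0.702 and 0.731. GPI, glucose-6-phosphate isomerase, and GPD1, glycerol-3-phosphate dehydrogenase, are enzymes of glucose use in muscle. These are rankings over few birds, with no test.

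Around the members, 47 further genes of the same pathways were listed, of which 40 were found by name and 27 were tested in each comparison. Between 180 and 42 days 1 of them rose and 1 fell as DEGs, against 0.462% and 2.46% of all genes, and in the other comparisons 0 were DEGs. At an adjusted p under 0.05 and any fold change, 2 of 27 passed at 126 and 2 at 180 days against 42 days, beside 3.21% and 3.41% of all genes, and 0 passed between 126 and 180 days, beside 1.25%. At an unadjusted limma p under 0.05, 15.8% of all genes passed there.

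AGXT2, a mitochondrial aminotransferase that uses beta-alanine as an amino donor, was the gene that rose. It was at 2.39, 1.04, 3.04, 0.37 and 0.36 FPKM at 42 days, at 4.77, 4.38, 7.34, 2.43 and 2.42 FPKM at 126 days and at 3.86, 7.12, 14.2, 11.6 and 13.4 FPKM at 180 days. Every 180-day bird lay above every 42-day bird, and the 126-day birds overlapped both. The log2 fold change of AGXT2 from 42 to 180 days was 3.01 (SE 0.57, adjusted p = 0.0147, limma), and it was a DEG with any 1 bird left out (2.68 to 3.37). From 42 to 126 days it was 1.81 (SE 0.56, adjusted p = 0.101, limma), and from 126 to 180 days 1.19 (SE 0.40, adjusted p = 0.168, limma), or 1.495 (adjusted p = 0.0361, limma) without 180-day replicate 1. From 126 to 180 days AGXT2 was also a DEG under 1 of the 10 alternatives other than leaving out a single bird.

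HNMT, histamine N-methyltransferase, was the gene that fell. Its levels were 8.67, 4.05, 2.86, 4.5 and 2.41 FPKM at 42 days, 10.1, 2.70, 2.78, 1.48 and 1.17 FPKM at 126 days and 1.32, 0.67, 0.70, 0.28 and 0.27 FPKM at 180 days. All 180-day birds were below all 42-day birds. The log2 fold change of HNMT from 42 to 180 days was -2.66 (SE 0.44, adjusted p = 0.00719, limma), and it lay between -2.94 and -2.39 with 1 bird left out. From 126 to 180 days it was -2.08 (SE 0.57, adjusted p = 0.0989, limma), or -2.36 (adjusted p = 0.0419, limma) without 180-day replicate 1. HNMT was a DEG there under 2 of the 10 alternatives other than leaving out a single bird. By the row of HNMT with the highest mean alone, the value from 42 to 180 days was -1.90 (adjusted p = 0.360, limma), which ended the call. In chicken, an HNMT-like protein is known to methylate carnosine to anserine. No row carried a name listed for it, and how reads were divided between both genes was not given in the sources used here, so that the HNMT level is uncertain.

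SETD3, which methylates a histidine of actin, and ALDH6A1, the methylmalonate semialdehyde dehydrogenase that also handles malonate semialdehyde from beta-alanine, were lower at 126 than at 42 days. SETD3 fell from 31.1 ± 7.42 to 16.3 ± 2.15 FPKM (SD, n = 5), without overlap, by a log2 fold change of -0.90 (SE 0.20, adjusted p = 0.0326, limma). It was at 25.5 ± 3.21 FPKM at 180 days. ALDH6A1 fell from 62.3 ± 14.3 to 33.2 ± 6.13 FPKM, by a log2 fold change of -0.89 (SE 0.20, adjusted p = 0.0353, limma), and was at 46.1 ± 16.7 FPKM at 180 days. Neither reached a log2 fold change of 1 in size with all birds. Their calls were narrow. With 1 bird left out, the adjusted p (limma) stayed under 0.05 in 3 of 10 cases for SETD3 (without 42-day replicate 5 or 126-day replicate 1 or 5) and in 2 of 10 for ALDH6A1 (without 42-day replicate 3 or 5), reaching 0.0877 and 0.0948. It was 0.0819 and 0.0509 after quantile normalization, 0.0532 and 0.0601 without a filter on FPKM, and 0.406 and 0.0791 by the highest row of each gene name, where the log2 fold change of SETD3 was -2.36. SETD3 was a DEG without 42-day replicate 5 (-1.05) and ALDH6A1 without 42-day replicate 3 (-1.04). SETD3 was also a DEG under 1 of the 10 alternatives other than leaving out a single bird. Over those 10 its adjusted p (limma) lay between 0.00658 and 0.406.

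**Figure D5:**
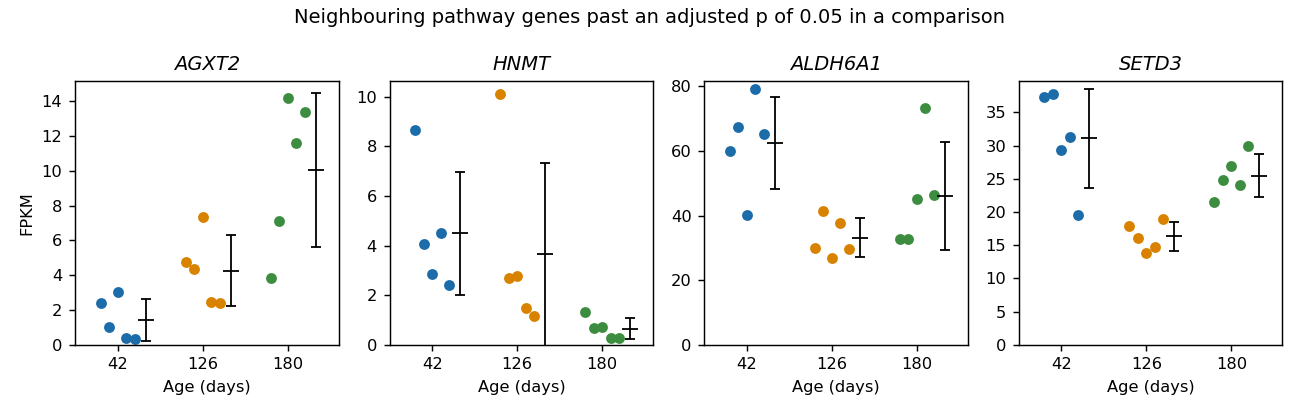
FPKM of AGXT2, HNMT, ALDH6A1 and SETD3 in each bird (points) at 42, 126 and 180 days, with the mean and SD of 5 birds (bars cut at 0). AGXT2 is above every 42-day bird and HNMT below every 42-day bird in all 5 birds of 180 days. ALDH6A1 and SETD3 are lowest on average at 126 days, at 33.2 and 16.3 FPKM.

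By route, 3 of 5 listed methyltransferases of histidine compounds were tested, and METTL9, a protein histidine methyltransferase, was not called at 8.41, 10.5 and 11.2 FPKM at 42, 126 and 180 days. Uracil breakdown upstream of UPB1 was low, with DPYD, its first enzyme, at a mean of 0.728, 0.638 and 0.800 FPKM. On the polyamine route all 5 genes were tested and 0 were called, led by SAT1 at 81.1, 56.6 and 68.1 FPKM. HIBADH, 3-hydroxyisobutyrate dehydrogenase, was listed with the beta-alanine breakdown genes, but its level is not read as one of that route. It was at 43.8 ± 19.9, 99.2 ± 32.7 and 66.2 ± 18.1 FPKM. This was the highest mean of its list at 126 and 180 days but not at 42 days, where ALDH6A1 was higher. The log2 fold change of HIBADH from 42 to 126 days, 1.22 (SE 0.35), had an adjusted p of 0.0829 (limma). Of the coenzyme A genes, 6 were tested and 0 called, led by COASY at 27.9, 22.4 and 26.2 FPKM. Of the genes listed around cysteine and taurine, CTH, cystathionine gamma-lyase, had the highest level, at 10.1, 11.4 and 15.3 FPKM. CTH and CBS act before cysteine, so their levels are not read as those of the steps from cysteine to taurine. CDO1 averaged 5.32, 5.86 and 3.38 FPKM at 42, 126 and 180 days, ADO 6.98, 6.85 and 6.39 FPKM, and SUOX 2.72, 1.84 and 4.68 FPKM. CBS, which condenses homocysteine with serine, was at 0.82, 3.37, 0.40, 1.27 and 25.2 FPKM in the 42-day birds and between 0.09 and 0.37 FPKM in the older birds. The log2 fold changes of CBS were -2.98 and -3.05 at 126 and 180 days (adjusted p = 0.0813 and 0.0773, limma), and the value of 25.2 FPKM was that of 42-day replicate 5. CBS averaged 0.194 and 0.178 FPKM at 126 and 180 days. It thus reached the mean of 0.5 FPKM needed for a test only through the 42-day birds. A negative value was therefore favoured in advance, and no change is read from these fits. The glutamate decarboxylases GAD1 and GAD2 and the 5 genes of histidine breakdown were too low to be tested. Among peptide and beta-amino acid transporters, SLC15A4, a lysosomal carrier of histidine and dipeptides, was highest, at 10.8 and 12.3 FPKM at 126 and 180 days, and 0 were called.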

How the data were processed

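Per the deposited table and its labels, the authors filtered paired-end reads with Cutadapt, mapped them with HISAT2 2.2.1 and obtained FPKM with 2 decimals; the processing notes also name StringTie 2.1.6. The genome build is not given in the sources used here, so no positions are printed. FPKM keep no counts, so depth and counting error are unknown. All table columns were mapped to birds by name.

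Rows were summed by gene name. What a row stands for is not given in the sources used here. For each pair of ages, limma 3.58.1 (R 4.3.3, eBayes with trend, two-sided) was fitted to log2(FPKM + 0.1). A gene entered when it averaged 0.5 FPKM or more in the 10 birds, with Benjamini-Hochberg adjustment. The authors used DESeq2, which needs counts. A fold change is on the log2(FPKM + 0.1) scale. The procedure was tested on simulated data with independent normal noise and 200 genes changed by 2 log2 units. It recovered 81%, 79% and 76% of these for 126 against 42, 180 against 42 and 180 against 126 days. Smaller changes and birds that stand apart were not simulated, so this says nothing of power for smaller changes. Figures and descriptions were made in Python 3.11.15 with pandas 2.3.3.

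Named were all members, the listed pathway genes that were DEGs and the highest of each list, and the 5 genes most like CARNS1 and SLC6A6. SETD3, ALDH6A1, CBS, METTL9, the genes most like GADL1 and the ratios were added after their values were seen. The members and lists were chosen with earlier results of these data known. Marker lists were found by name, with 10 of 10 T cell, 4 of 6 B cell, 9 of 9 myeloid, 9 of 10 slow or cardiac muscle, 7 of 10 erythrocyte and all listed adipocyte, fibroblast, endothelial and nerve markers. The summed level of adipocyte markers 21.8 to 54.9, of endothelial markers 81.9 to 183 and of nerve markers 19.1 to 77.9 FPKM.

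Alternatives were a pseudocount of 1, no filter, a minimum mean of 1 FPKM, each bird scaled to sum to 1000000 FPKM, a joint fit of the 3 ages, quantile normalization, a replicate block, the highest row per gene name, robust hyperparameters and each bird left out in turn. Leaving out the bird of each age least like the others was chosen after seeing the data. Replicates are separate birds. Labels name no batch beyond the slaughter age, so no named batch could be examined. The FPKM sum of a bird fell with replicate number at 42 days (469268 in replicate 1, 413638 in replicate 5) and at 126 days (478434 and 445023). At 180 days it was 457574 in replicate 1, 481698 in replicate 2 and 440039 in replicate 5. The reason for this order was not tested. No sequences are printed.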

Additional observations from a re-analysis of the deposited data

Results flagged for a closer look

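Of 25 groups of 5 birds with values that could be examined, 6 held a bird far from the others. Far means a gap to the next bird of over 0.71 of the range of the group. No rate by chance is given, since FPKM are not normally distributed and the groups share the same birds. The share over all genes was not computed. In 3 of them this was 42-day replicate 5, at 34.51 FPKM of CNDP2 (others 18.8 to 21.5), 2.15 FPKM of CSAD (0.52 to 0.87) and 1.62 FPKM of UPB1 (0.30 to 0.60). GADL1 was at 187.4 FPKM in 42-day replicate 1, where the others lay between 2.03 and 48.5. ABAT was at 49.6 FPKM in 42-day replicate 4, against 27.2 to 32.9. SLC6A6 was at 15.64 FPKM in 180-day replicate 1, against 0.60 to 1.07.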

How the results depend on the processing

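DEGs over all genes numbered 283, 342 and 106 for 126 against 42, 180 against 42 and 180 against 126 days. For 126 against 42 days there were 186 with a pseudocount of 1, 169 without a filter, 51 by the highest row of each gene name, 538 without the 3 birds that stood apart, and 77 (without 42-day replicate 2) to 375 (without 126-day replicate 1) with 1 bird left out. For 180 against 42 days there were 172 by the highest row, 892 without the 3 birds, and 176 (without 42-day replicate 2) to 770 (without 180-day replicate 1) with 1 left out. For 180 against 126 days there were 53 without a filter, 20 by the highest row, 336 without the 3 birds, and 15 (without 180-day replicate 2) to 378 (without 180-day replicate 1) with 1 left out. The cause of these differences was not tested. Over all genes tested, quantile normalization shifted the median log2 change against 42 days from -0.15 to -0.0097 (126 days) and -0.13 to 0.0024 (180 days), and higher and lower DEGs from 63 and 220 to 116 and 152, from 54 and 288 to 54 and 176, and from 54 and 52 to 28 and 56.

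Members that were DEGs numbered 0 in every comparison and alternative other than 1 for 180 against 42 days, SLC6A6, without the 3 birds or without 180-day replicate 1 (0 to 1 with 1 bird left out). Values that changed direction were, for SLC6A6 from 42 to 180 days, 0.000914 with a pseudocount of 1, 0.079 after quantile normalization, 1.36 by the highest row and -1.03 to 0.092 with 1 bird left out. From 126 to 180 days SLC6A6 was at -0.36 without the 3 birds and at -0.63 to 0.49 with 1 left out, CNDP2 at -0.077 and -0.13 to 0.12, and CSAD at -0.29 to 0.064. From 42 to 180 days GADL1 was at -0.72 without the 3 birds and at -0.73 to 0.89 with 1 left out, and CARNS1 at -0.67 to 0.083. HNMT from 42 to 126 days was at 0.49 by the highest row. None of these passed the threshold except SLC6A6 without 180-day replicate 1. Of 691 values of the members, AGXT2, HNMT, SETD3 and ALDH6A1 under an alternative, 660 kept direction and side of the threshold. With all birds, only AGXT2 and HNMT from 42 to 180 days were DEGs among these genes. Most of the 660 were thus values that were not called and remained so, which says little of stability.

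Replicate numbers were not taken to pair the birds, since the labels name no shared source. Deviations of birds with the same number correlated at -0.13 to 0.16, -0.11 to 0.15 and -0.023 to 0.32, over 0.1 in 3, 2 and 4 of 5 pairs, and birds matched their own number best in 2, 0 and 3 of 5 cases. These correlations cannot show whether birds of one number share a source. With the replicate block there were 264, 307 and 270 DEGs, beside 283, 342 and 106 without it, and 0 members. Under the block AGXT2 from 42 to 126 days (1.81, adjusted p = 0.0240, limma) and HNMT from 126 to 180 days (-2.08, adjusted p = 0.0142, limma) were DEGs. SETD3 had an adjusted p (limma) of 0.0635 from 42 to 126 days and 0.0494 from 126 to 180 days. No other call changed among the members, AGXT2, HNMT, SETD3 and ALDH6A1. Other named genes, such as HIBADH and CBS, were not followed under the alternatives. The unknown depth limits what can be said of CNDP1, UPB1 and CSAD, and 5 birds an age limit what can be said of GADL1.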
